A study of Homo sapiens with 28 samples.

Results

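Genes that were silent in an acute myeloid leukaemia (AML) line and came on under a DNMT1 inhibitor numbered 35 of the 11676 genes measured. They were chosen by their measured levels: in at least 1 line, both arrays of vehicle-treated cells lay at or below 4 and both arrays of inhibitor-treated cells lay at or above 7, on the log2 signal scale of the arrays. A gene was read from 1 probe set, the one with the highest mean over all 28 arrays. Before named genes and symbol groups were left out, 52 genes met these limits. The 17 left out belonged to a set of 16 named genes, several of them cancer-testis antigens, or had symbols beginning with SLC, CD or LINC. The study used 7 established AML lines: GDM1, SKM1, SKNO1, MOLM13, THP1, NOMO1 and SHI1. Each was cultured for 96 hours with either 1 µM GSK3484862 or 0.1% DMSO, in biological duplicate, so that each of 14 groups held 2 Affymetrix U133 Plus 2.0 arrays. MOLM13, THP1, NOMO1 and SHI1 are known to carry KMT2A rearrangements, and SKNO1 the RUNX1-RUNX1T1 fusion; each line is a single culture-adapted leukaemia, so a result in 1 line is a result about that line.

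DNMT1 is the maintenance DNA methyltransferase: after each round of replication it copies the methyl mark at CpG dinucleotides onto the new strand. GSK3484862 inhibits it without being built into DNA, unlike the nucleoside drugs azacitidine and decitabine, and cells that go on dividing then lose methylation. Dense methylation of a promoter can hold a gene silent, and leukaemic lines differ in which genes they hold this way, including genes of myeloid maturation. DNA methylation was not measured on these arrays, so the values below concern RNA alone.

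The stretches of DNA just ahead of the members' start sites show how different the promoters of these genes are, and 7 are printed: the gene with the largest change in each of the 5 lines that had a member, and the members with the most and the fewest CpG. These 7 were picked among the members whose levels are described below and that have a RefSeq promoter window. Each is the 250 bases before the RefSeq start site on the gene's own strand (GRCh38.p14), written 5′ to 3′, with every CpG in capitals. The EPSTI1 stretch lies at chr13:42992242-42992491 (minus strand), S100P at chr4:6693628-6693877 (plus), HDC at chr15:50265727-50265976 (minus), MAP3K13 at chr3:185282711-185282960 (plus), PEX5L at chr3:179974226-179974475 (minus), SMAD9 at chr13:36920239-36920488 (minus) and PPBP at chr4:73988191-73988440 (minus).
EPSTI1: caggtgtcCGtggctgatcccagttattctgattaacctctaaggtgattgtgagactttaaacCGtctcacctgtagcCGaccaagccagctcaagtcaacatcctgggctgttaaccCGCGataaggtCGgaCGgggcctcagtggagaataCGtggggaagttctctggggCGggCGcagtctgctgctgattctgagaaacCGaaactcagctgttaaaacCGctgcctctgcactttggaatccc
S100P: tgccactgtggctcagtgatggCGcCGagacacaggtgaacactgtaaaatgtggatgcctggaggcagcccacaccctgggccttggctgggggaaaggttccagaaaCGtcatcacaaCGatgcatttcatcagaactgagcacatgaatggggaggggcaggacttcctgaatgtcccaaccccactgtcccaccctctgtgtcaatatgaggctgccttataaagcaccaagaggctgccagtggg
HDC: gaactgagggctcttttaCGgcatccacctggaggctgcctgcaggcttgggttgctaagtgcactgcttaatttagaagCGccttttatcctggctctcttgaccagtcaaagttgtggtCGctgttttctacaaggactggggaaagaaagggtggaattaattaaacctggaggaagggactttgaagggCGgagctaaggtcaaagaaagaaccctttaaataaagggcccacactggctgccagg
MAP3K13: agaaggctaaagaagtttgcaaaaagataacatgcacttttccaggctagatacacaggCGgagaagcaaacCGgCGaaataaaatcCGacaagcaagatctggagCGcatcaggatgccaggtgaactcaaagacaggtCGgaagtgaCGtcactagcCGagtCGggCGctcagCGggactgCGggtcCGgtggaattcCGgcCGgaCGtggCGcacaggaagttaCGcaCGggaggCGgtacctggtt
PEX5L: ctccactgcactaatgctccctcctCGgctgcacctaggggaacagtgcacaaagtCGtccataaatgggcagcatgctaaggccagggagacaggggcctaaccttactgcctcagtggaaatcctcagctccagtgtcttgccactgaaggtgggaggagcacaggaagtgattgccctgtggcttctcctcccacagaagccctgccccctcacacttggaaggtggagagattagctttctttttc
SMAD9: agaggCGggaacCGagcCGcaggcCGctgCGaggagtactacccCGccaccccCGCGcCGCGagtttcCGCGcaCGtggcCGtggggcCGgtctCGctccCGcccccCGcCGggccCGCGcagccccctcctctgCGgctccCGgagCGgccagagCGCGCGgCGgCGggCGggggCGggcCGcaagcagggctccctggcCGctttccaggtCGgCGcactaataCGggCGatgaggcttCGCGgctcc
PPBP: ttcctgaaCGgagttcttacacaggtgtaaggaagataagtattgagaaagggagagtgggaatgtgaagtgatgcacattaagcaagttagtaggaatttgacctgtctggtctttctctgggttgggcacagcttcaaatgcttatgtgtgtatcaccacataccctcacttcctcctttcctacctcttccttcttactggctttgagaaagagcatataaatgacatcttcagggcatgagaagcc
The SMAD9 stretch holds 39 CpG and the PPBP stretch 1, while MAP3K13 holds 20, EPSTI1 12, S100P and HDC 4 each and PEX5L 2. CpG sites, where DNMT1 acts, were thus dense ahead of some members and nearly missing ahead of others.

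A RefSeq promoter window (250 bases before to 50 after the start) was at hand for 27 of the 34 members whose levels are described below and for 9563 genes in all. The median window of a member held 13 CpG, against 26 over all genes, and ranged from 1 in PPBP to 50 in SMAD9. A ratio of observed to expected CpG of at least 0.6, a common mark of a CpG island, was found in 12 of the 27 members (44.4%), against 82.4% of all genes and 65.5% of the genes silent in at least 1 line before treatment. Those 12 were SMAD9, TM6SF1, PPIC, FBLN1, ANPEP, TGFBI, MAP3K13, MYO5C, SAMHD1, PDE4B, EPSTI1 and SULF2. At the other end, 9 members (33.3%) had 5 or fewer CpG, against 7.59% of all genes and 17.5% of the genes silent in a line: PPBP, CLC, HNMT, MNDA, ADORA3, PEX5L, IL2RG, S100P and CEACAM6. The TATA-box letters TATAAA, searched on both strands, occurred in 5 members (18.5%), namely CEACAM6, S100P, IL2RG, MNDA and PPBP, in 5.75% of all genes and in 9.29% of the genes silent in a line. The letters GAGGAA, which form the core of sites bound by the myeloid factor PU.1 and by other ETS factors, occurred on either strand in 17 members (63.0%) against 27.8% of all genes and 30.3% of the genes silent in a line. Windows poor in CpG hold these letters more often: below a ratio of 0.6 they were in 13 of 15 members and 39.3% of all genes, and at or above it in 4 of 12 members (33.3%) and 25.3% of all genes. A match of letters is a description of the window, not a binding site.

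**Figure D1:**
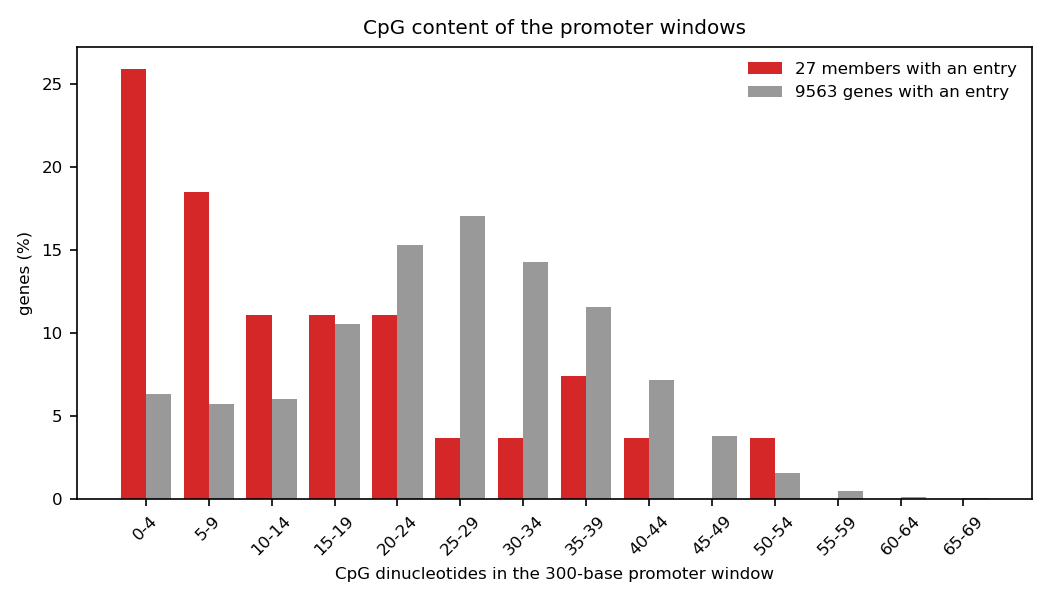
Share of genes (vertical axis, percent) by the number of CpG dinucleotides in the 300-base RefSeq promoter window (horizontal axis, bins of 5), for the 27 members with an entry (red bars) and all 9563 genes with an entry (grey bars). The members' bars are highest at 0 to 4 CpG, with 7 members (25.9%) against 6.35% of all genes, and they also reach the bin of 50 to 54.

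Every one of the 35 members met the rule in exactly 1 line, and the lines differed in how many they had. MOLM13 had 14 members, SKM1 10, GDM1 6, SKNO1 4 and NOMO1 1, while THP1 and SHI1 had none. Of the 17 genes left out, 9 met the limits in 2 or more lines. Switching on from silence was rare: counting all genes, the limits were met by 20 of the 1560 genes silent in MOLM13 (1.28%), 21 of 1041 in SKM1 (2.02%), 9 of 1579 in GDM1 (0.57%), 6 of 1457 in SKNO1, 5 of 1116 in NOMO1, 3 of 1057 in THP1 and 3 of 1318 in SHI1. The opposite passage, from both DMSO arrays at or above 7 to both treated arrays at or below 4, was made by 1 gene in MOLM13 and by 0 genes in each of the other 6 lines. One member, XIST, met the rule in SKNO1 and its levels are not given; the 34 others are described.

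Under DMSO the 34 genes lay between 2.13 and 3.86 in the line that chose them (median 2.78), where 2.13 is the lowest value of every array and values have no order. Under GSK3484862 their mean level was 7.25 to 11.07 (median 8.09). The change ran from 3.59 for PEX5L to 7.56 for HDC with a median of 5.49, or 12.0-fold to 189-fold with a median of 45.1-fold. These values chose the members and carry no test; the floor limits how large a fold can be. Treated duplicates differed by a median of 0.40 and by at most 1.46. At the edge of the rule, PEX5L in NOMO1, ENTPD1 in MOLM13 and PPIC in MOLM13 lay just inside. S100A9 in MOLM13 (4.01 and 3.81 under DMSO, 11.11 and 11.31 treated), PTGDR2 in GDM1 (3.71 and 4.01, then 7.35 and 6.98) and IL32 in SKM1 (2.13 and 2.13, then 6.96 and 7.13) lay just outside. Applied to the replicate 1 arrays alone the rule chose 67 gene-line pairs, whose changes in replicate 2 ran from 1.39 to 7.65 (median 4.69). Applied to replicate 2 alone it chose 64, whose changes in replicate 1 ran from -2.00 to 7.64 (median 4.54). The 35 pairs common to both are the members by construction. A further 30 probe sets represent 16 of the members: 25 had both treated arrays above both DMSO arrays in the same line, 5 overlapped and 0 were lower, and 2 of them (for PLXDC2 and SAMHD1) met the limits themselves. Their changes ran from -0.06 to 4.67, so the size and in places the silence of a member depend on the probe set. These probe sets read the same RNA on the same arrays, in a line chosen because the gene rose there. Their direction is therefore no independent support, and the share over all probe sets was not computed.

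**Figure D2:**
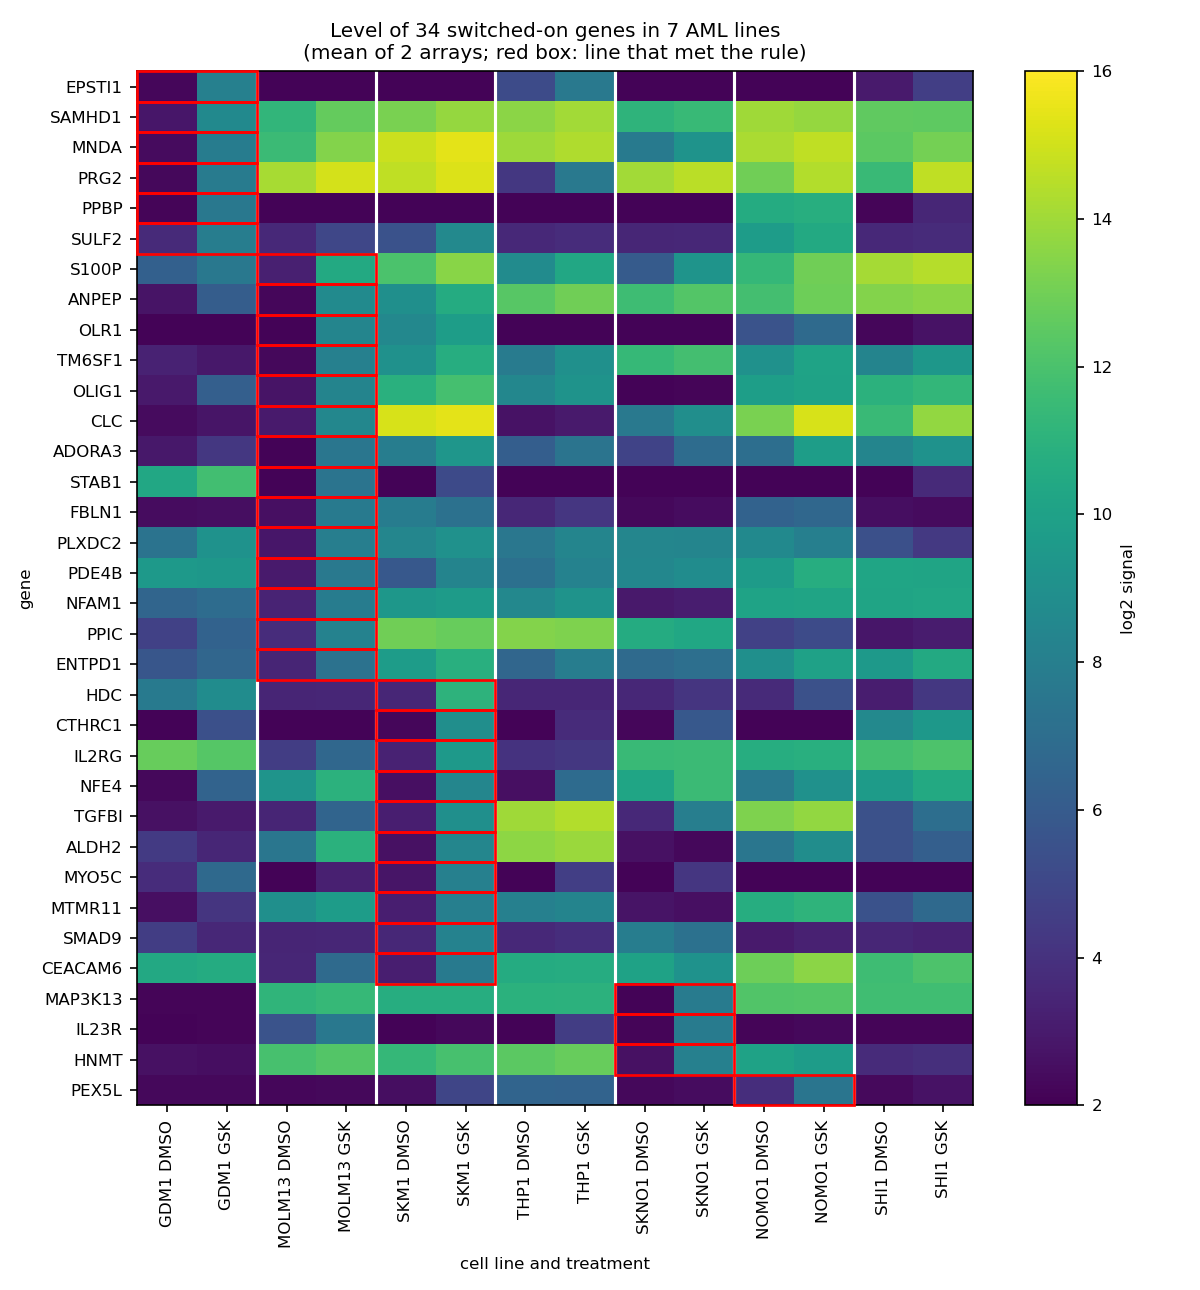
Mean log2 signal of 2 arrays (colour, from 2 in dark purple to 16 in yellow) for the 34 described members (rows, ordered by the line that met the rule and by change) in the 7 lines under DMSO and under GSK3484862 (columns, marked GSK). Red boxes mark the line in which a gene met the rule; outside the boxes many rows are already green or yellow under DMSO, as 30 of the 34 genes were on in another untreated line.

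Silence in 1 line usually stood beside expression in another. Counting a gene as on where both DMSO arrays reached 7, 30 of the 34 members (88.2%) were on before treatment in at least 1 other line, against 1412 of the 2459 genes that were silent in some line (57.4%). Of the members, 16 were on in 4 or more other lines and 8 in exactly 1. The 4 that were on in no other line were EPSTI1, IL23R, MYO5C and PEX5L. After treatment, 27 of the 34 stayed below the highest untreated level seen in another line, and the median gap over the 34 genes was 2.67. The gap was widest for MNDA, which reached 7.90 in GDM1 while untreated SKM1 stood at 14.88. It ran the other way most for MYO5C, which reached 8.11 in SKM1, above the 3.79 of untreated GDM1.

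**Figure D3:**
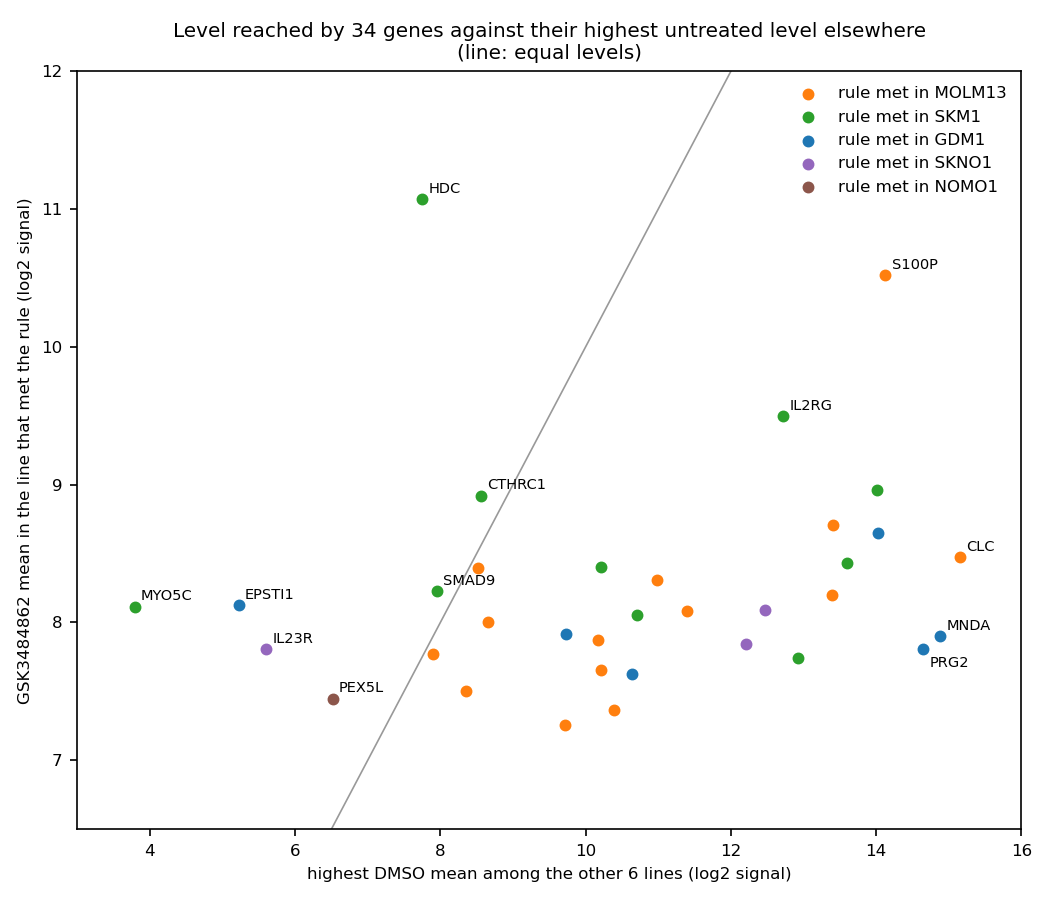
Mean log2 signal under GSK3484862 in the line that met the rule (vertical axis) against the highest mean DMSO signal among the other 6 lines (horizontal axis) for 34 members, each a point coloured by the line that met the rule; the diagonal marks equal levels. The 27 points right of the diagonal stayed below an untreated line, and the 7 left of it, HDC, CTHRC1, SMAD9, MYO5C, EPSTI1, IL23R and PEX5L, passed it.

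In the lines where a member did not meet the rule, the change was tested with limma across all genes (Benjamini-Hochberg adjusted p under 0.05 within a line, here "called"). A pair is in this set because that line's own arrays missed the limits, and the arrays of all lines entered the choice of the probe set. Of 204 such gene-line pairs, 78 were called up, 1 was called down and 125 were not called. In GDM1, 13 of 28 members were called up (46.4%, against 13.3% of all genes), in MOLM13 10 of 20 (13.7% of all genes) and in SKM1 12 of 24 (14.1% of all genes). THP1 gave 13 of 34 (38.2% against 5.4%), SKNO1 8 of 31 (25.8% against 2.96%), NOMO1 12 of 33 (36.4% against 4.21%) and SHI1 10 of 34 (29.4% against 2.52%). Falls were called in 20.5% of all genes in GDM1, 15.4% in MOLM13, 14% in SKM1, 8.3% in THP1, 3.12% in SKNO1, 7.55% in NOMO1 and 0.899% in SHI1, while the sole fall among the members was SMAD9 in GDM1. The median change of the members outside the rule lay between 0.16 in SKNO1 and 1.01 in MOLM13, beside medians of all genes between -0.03 and 0.00. NFE4 was called up in all 6 of its other lines, 14 members in 3 or more, and FBLN1, HNMT, MAP3K13 and SMAD9 in 0. How many of all genes were called up in as many lines was not counted, so these numbers have no background. At an unadjusted p under 0.05, FBLN1 and HNMT were each up in 1 other line and MAP3K13 and SMAD9 in 0.

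**Figure D4:**
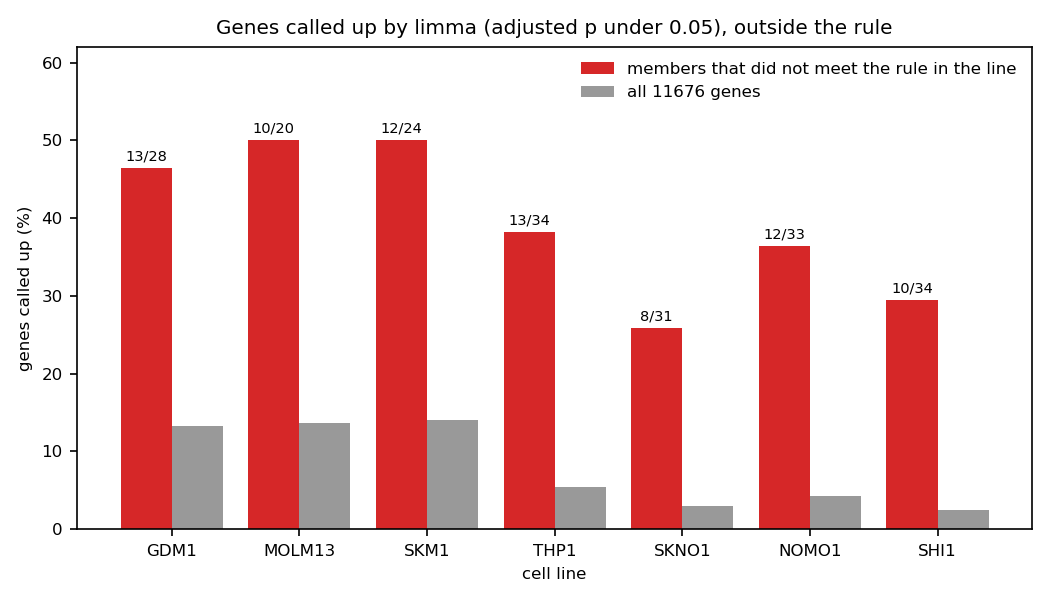
Share of genes called up by limma (vertical axis, percent) in each line (horizontal axis), for the members that did not meet the rule in that line (red bars, with counts above them) and for all 11676 genes (grey bars). The lowest red bar is that of SKNO1 at 25.8%, the highest are those of MOLM13 (10 of 20) and SKM1 (12 of 24), and each stands above the grey bar of its line.

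The number of calls moved when single arrays were left out in 3 lines and when lines were fitted separately in 5. Separate fits lose both the shared estimate of spread and residual degrees of freedom, and which of these mattered was not tested. Without the second treated array SKNO1 had 5 calls, without the second DMSO array NOMO1 had 6, and SHI1 had 4 without the first DMSO array, 5 without the second DMSO array and 4 without the first treated array. When each line was fitted on its own 4 arrays, 0 members were called up in SKM1, SKNO1, NOMO1 and SHI1 and 1 in THP1, while at an unadjusted p under 0.05 in those fits 14, 12, 15, 19 and 22 members were up. GDM1 and MOLM13 had 9 and 7 calls in such fits. Over all genes the same fits called 0 in SKNO1, NOMO1 and SHI1, 2 in THP1 and 53 in SKM1, against 2349 in GDM1 and 2056 in MOLM13, so the loss in those 5 lines is one of all genes and not of the members alone. The treated SKM1 duplicates were the widest apart of all groups (single-array SD 0.30, against 0.16 in the tightest), so SKM1 values are the least precise.

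Among the 79 single changes called outside the rule, 29 lost their call when some array of their line was left out. They were ADORA3, ENTPD1, MTMR11, PPIC and SMAD9 in GDM1, MYO5C in MOLM13, and ADORA3, OLIG1, OLR1 and SAMHD1 in SKM1. In THP1 they were ADORA3, NFAM1, PDE4B and SAMHD1, in SKNO1 CLC, MNDA and MYO5C, in NOMO1 ALDH2, ANPEP, ENTPD1, OLR1, PDE4B and PRG2, and in SHI1 CTHRC1, ENTPD1, EPSTI1, HDC, NFE4 and STAB1. Some also moved by over 1.5 times in size. ADORA3 in SKM1 became 0.59 without the first treated array and 2.27 without the second, and OLR1 in NOMO1 became 0.51 without the second DMSO array and 2.01 without the first. OLR1 in SKM1 became 0.78 without the first treated array, and ALDH2 in NOMO1 0.84 without the second DMSO array and 0.85 without the first treated array. ENTPD1 in GDM1 became 0.53 without the first DMSO array, MTMR11 in GDM1 0.91 without the second treated array, and EPSTI1 in SHI1 1.0 without the first treated array. S100P in GDM1 (0.82) and PEX5L in SKM1 (1.49), each without the second treated array, were still called.

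What a member did elsewhere can be sorted by its state before treatment. In 76 pairs the gene was silent in the other line too: 24 of these (31.6%) were called up, against 7.47% over the silent gene-line pairs of all genes outside the rule, of which 0.817% were called down. By the rule itself such a pair has a treated array below 7. In 52 of the 76 pairs both treated arrays stayed at or below 4. In 29 pairs the DMSO level lay between the limits, and 16 were called up (55.2% against 11.4%) and 1 down (background 6.67%). In the 99 pairs where the gene was already on, 38 were called up (38.4% against 7.34%) and 0 down with limma (2 at an unadjusted p under 0.05; background 12%), with changes between -0.92 and 3.40.

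Of the list of eosinophil, basophil and mast cell genes, 3 were members: PRG2 in GDM1, CLC in MOLM13 and HDC in SKM1. These encode, in turn, the eosinophil major basic protein, the Charcot-Leyden crystal protein and the enzyme that makes histamine. HNMT, on no list, met the rule in SKNO1 and encodes an enzyme that inactivates histamine. HDC stood at 3.49 and 3.54 in the untreated SKM1 arrays and at 10.96 and 11.19 in the treated ones, the largest change of any described member. Treated SKM1 thus passed untreated GDM1 (7.81 and 7.68), the one line where HDC was already on. In the lines that did not choose it, HDC rose by 1.08 ± 0.26 (SE; adjusted p = 0.00414) in GDM1, by 1.82 ± 0.26 (adjusted p = 0.000258) in NOMO1 and by 1.14 ± 0.26 (adjusted p = 0.021) in SHI1.

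PRG2 went from 2.49 and 2.13 to 7.30 and 8.32 in GDM1. In MOLM13, SKM1 and SKNO1 its untreated level was already between 13.92 and 14.72, and none of these 3 lines was called. Where the untreated level was lower, it rose, by 3.39 ± 0.43 in THP1 (from 5.14 and 3.43 to 7.51 and 7.84, adjusted p = 7.68e-05), by 3.15 ± 0.43 in SHI1 (adjusted p = 0.00031) and by 1.41 ± 0.43 in NOMO1 (adjusted p = 0.0419). CLC went from 3.00 and 3.04 to 8.78 and 8.17 in MOLM13, while untreated SKM1 arrays read 15.17 and 15.15. It rose by 2.00 ± 0.32 in NOMO1 (adjusted p = 0.000686), by 2.26 ± 0.32 in SHI1 (adjusted p = 0.000474) and by 1.27 ± 0.32 in SKNO1 (adjusted p = 0.0268), and in GDM1 and THP1 it was silent before and after. HNMT read 2.67 and 2.54 before and 7.87 and 8.32 after in SKNO1 and was called in no other line, among them GDM1, where both pairs of arrays stayed low (2.54 and 2.67, then 2.54 and 2.54). The other HNMT probe sets changed less in SKNO1, by 3.10, 0.10, 0.0 and 0.0. Of 13 other measured genes of that list, 5 were called up in GDM1 (beside 13.3% of all genes), 4 in SKM1 (14.1%), 3 in MOLM13 (13.7%), 3 in SKNO1 (2.96%), 2 in SHI1 (2.52%), 1 in NOMO1 (4.21%) and 0 in THP1 (5.4%; 0 also at an unadjusted p under 0.05), with 1 fall, in SKM1.

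Of the neutrophil and granule list, S100P was a member in MOLM13 and CEACAM6 in SKM1. ANPEP, on the list of AML identity markers, and OLR1 and NFAM1, on no list, are surface proteins of myeloid cells that met the rule in MOLM13. S100P, a calcium-binding S100 protein of granulocytes and of many epithelial cancers, went from 2.88 and 3.60 to 10.51 and 10.53 in MOLM13. Before treatment the other lines spanned a wide range, from 5.88 and 6.17 in SKNO1 to 14.12 and 14.14 in SHI1. S100P rose in 5 of the 6 other lines, by 3.25 ± 0.28 in SKNO1 (adjusted p = 8.16e-07) and by 1.66 ± 0.28 in NOMO1 (adjusted p = 0.000979) at the upper end and by 1.31 ± 0.28 in GDM1 (adjusted p = 0.00157) at the lower. In SHI1, where it was highest, the change of 0.30 ± 0.28 was not called.

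ANPEP, the aminopeptidase known as CD13 that marks myeloid cells, read 2.31 and 2.21 before and 9.05 and 8.36 after in MOLM13, while untreated THP1, SKNO1, NOMO1 and SHI1 arrays lay between 11.52 and 13.47. GDM1 was silent for ANPEP as well and rose to 6.45 and 5.85, short of the limit in both arrays (change 3.40 ± 0.26, adjusted p = 7.93e-08). OLR1, the scavenger receptor LOX-1, went from 2.19 and 2.14 to 8.33 and 8.46 in MOLM13 and stayed silent in GDM1, THP1, SKNO1 and SHI1. It rose in SKM1 by 1.26 ± 0.37 (adjusted p = 0.0163) and in NOMO1 by 1.26 ± 0.37 (adjusted p = 0.0349), the lines where it already lay above 4. NFAM1, an activating receptor of myeloid and B cells, went from 3.18 and 3.56 to 7.89 and 7.85 in MOLM13. A second NFAM1 probe set was not silent there, reading 6.43 and 6.60 under DMSO and 7.84 and 7.89 treated. The other call of NFAM1 was a rise of 0.66 ± 0.18 in THP1 (adjusted p = 0.0202). CEACAM6, a granulocyte adhesion molecule, was on in 5 lines and silent in SKM1 and MOLM13. It went from 3.15 and 3.15 to 7.45 and 8.04 in SKM1, whereas its MOLM13 arrays went from 3.84 and 3.15 to 5.80 and 7.93, 1 array past the limit and 1 short of it (change 3.37 ± 0.44, adjusted p = 2.8e-05). The other CEACAM6 probe set changed less in SKM1, from 2.16 and 2.16 to 3.14 and 4.65. Among 30 other measured genes of the neutrophil and granule list, 16 were called up in MOLM13 (beside 13.7% of all genes), 15 in SKM1 (14.1%), 12 in NOMO1 (4.21%), 7 in GDM1 (13.3%), 5 in THP1 (5.4%), 4 in SKNO1 (2.96%) and 4 in SHI1 (2.52%), and 5 fell, in GDM1.

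EPSTI1 was the sole member on the interferon response list; it met the rule in GDM1, as did SAMHD1 and MNDA, which are on no list. EPSTI1, an interferon-induced gene, read 2.13 and 2.36 before and 7.83 and 8.41 after in GDM1. It rose by 2.41 ± 0.32 in THP1 (adjusted p = 0.000132) and by 1.58 ± 0.32 in SHI1 (adjusted p = 0.00975), while all arrays of MOLM13, SKM1, SKNO1 and NOMO1 stayed at 2.13. SAMHD1, which degrades deoxynucleotides and restricts retroviruses in myeloid cells, went from 2.77 and 2.94 to 8.51 and 8.78 in GDM1. The other SAMHD1 probe sets changed less there, by -0.06 to 4.47. The one at the upper end went from 3.37 and 2.93 to 7.31 and 7.93 and met the limits. Another went from 2.73 and 3.13 to 3.89 and 6.06, and a further one from 2.58 and 2.25 to 2.65 and 3.66. The other 6 lines expressed SAMHD1 already, with untreated arrays between 10.87 and 14.12; it rose by 1.5 ± 0.16 in MOLM13 (adjusted p = 2.45e-06), 0.61 ± 0.16 in SKM1 (adjusted p = 0.00812) and 0.51 ± 0.16 in THP1 (adjusted p = 0.0395). MNDA, an interferon-inducible nuclear protein of monocytes and granulocytes, went from 2.22 and 2.56 to 7.26 and 8.54 in GDM1. It rose by 1.88 ± 0.27 in MOLM13 (adjusted p = 6.21e-05) and 1.39 ± 0.27 in SKNO1 (adjusted p = 0.00433), and was not called in the 4 lines where it stood highest. Of 51 other measured genes of the interferon list, 42 were called up in GDM1 (beside 13.3% of all genes), 32 in THP1 (5.4%), 23 in SKM1 (14.1%), 12 in MOLM13 (13.7%), 5 in NOMO1 (4.21%), 4 in SKNO1 (2.96%) and 1 in SHI1 (2.52%), and 3 fell in MOLM13, 2 each in NOMO1 and SHI1 and 1 in SKNO1. The median change of these 51 genes was 1.63 in GDM1 and -0.01 in SHI1.

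PPBP, the platelet chemokine precursor CXCL7, was also a member in GDM1. It went from 2.26 and 2.13 to 7.42 and 7.83, was on before treatment in NOMO1 alone (10.98 and 10.30), and rose by 1.29 ± 0.19 in SHI1 (adjusted p = 0.00061), to arrays of 3.70 and 3.28. MOLM13, SKM1, THP1 and SKNO1 stayed near the floor. Of 9 other measured megakaryocyte and platelet genes, 5 were called up in GDM1 (beside 13.3% of all genes), 4 in SKM1 (14.1%), where 2 fell, 2 in THP1 (5.4%), 1 each in MOLM13 (13.7%), SKNO1 (2.96%) and SHI1 (2.52%), and 0 in NOMO1 (4.21%; 1 at an unadjusted p under 0.05). All 6 measured markers of other cell types, of 30 listed, were at a mean of 7 or more in untreated GDM1. The platelet integrin ITGA2B stood at 13.23 (14.45 after treatment) and the T-cell gene CD3D at 14.60 (13.90 after), each the highest of any line. The B-cell gene CD79A was also highest in untreated GDM1, at 7.53 (6.97 after), against 4.20 in THP1 to 6.27 in SKM1. COL1A1 and PECAM1 were not particular to GDM1. Untreated COL1A1 ran from 9.16 in GDM1 to 9.58 in NOMO1, and PECAM1 was higher in NOMO1 (13.35) than in GDM1 (12.35). PAX5 read 7.26 in GDM1 and 7.17 in THP1. Whether these levels bear on the members in GDM1 was not tested. In the other lines 1 to 3 of those 6 markers reached 7, and 16 to 20 of 20 measured AML identity markers did so in each line.

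Among receptors, IL2RG was switched on in SKM1 and IL23R in SKNO1. IL2RG is the common gamma chain shared by receptors of interleukin-2 and related cytokines. Its SKM1 arrays went from 3.17 and 3.52 to 9.14 and 9.85. GDM1, SKNO1, NOMO1 and SHI1 expressed it before and were not called, and MOLM13 rose from 4.12 and 4.97 to 6.21 and 7.20 (adjusted p = 4.62e-05). IL23R, the interleukin-23 receptor, went from 2.19 and 2.20 to 7.95 and 7.67 in SKNO1, and no untreated line had it on. It rose by 2.41 ± 0.29 in THP1, where both DMSO arrays were at the floor (adjusted p = 5e-05), and by 2.03 ± 0.29 in MOLM13 (adjusted p = 5.94e-05); GDM1, SKM1, NOMO1 and SHI1 stayed silent.

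ENTPD1 (CD39) breaks down extracellular ATP, the first step towards adenosine, and ADORA3 is a receptor for adenosine; both met the rule in MOLM13. ADORA3 went from 2.14 and 2.14 to 7.61 and 7.39 and ENTPD1 from 2.92 and 3.94 to 7.27 and 7.24. Each was called up in 5 of its 6 other lines. ADORA3 rose most in NOMO1, by 2.73 ± 0.35 (adjusted p = 9.03e-05), and was not called in SHI1, while ENTPD1 rose by 0.89 to 1.29 in GDM1, SKM1, THP1, NOMO1 and SHI1 and was not called in SKNO1. The other ENTPD1 probe sets changed less in MOLM13, by 0.04 to 2.09, and the one at the lower end overlapped between treated and DMSO arrays. The other ADORA3 probe set also changed less there, from 3.71 and 3.46 to 4.68 and 4.76. PDE4B, a phosphodiesterase that degrades cyclic AMP, the messenger many such receptors act through, went from 2.59 and 3.46 to 7.60 and 7.71 in MOLM13. It rose by 2.48 ± 0.25 in SKM1 (adjusted p = 2.58e-06), 1.05 ± 0.25 in NOMO1 (adjusted p = 0.0125) and 1.03 ± 0.25 in THP1 (adjusted p = 0.0125). The other PDE4B probe set changed less in MOLM13, from 3.85 and 4.19 to 4.68 and 5.37.

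Of the matrix and adhesion list, TGFBI was a member in SKM1 and FBLN1 in MOLM13; STAB1 is on the monocyte and macrophage list, and CTHRC1, SULF2 and PLXDC2 are on none. CTHRC1, a secreted protein with a collagen-like repeat, went from 2.22 and 2.26 to 8.52 and 9.32 in SKM1. It rose out of silence in 3 further lines without reaching 7, by 3.58 ± 0.23 in SKNO1 (adjusted p = 2.87e-08), 3.28 ± 0.23 in GDM1 (adjusted p = 2.36e-08) and 1.57 ± 0.23 in THP1 (adjusted p = 0.000264), and stayed near the floor in MOLM13 and NOMO1. SHI1, the line that expressed it untreated (8.62 and 8.51), rose by 0.90 ± 0.23 (adjusted p = 0.0382). TGFBI, a matrix protein induced by TGF-beta and abundant in monocytes, went from 3.48 and 2.84 to 9.69 and 8.23 in SKM1. Its SKNO1 arrays went from 2.74 and 4.46 to 7.18 and 8.74, missing the rule through 1 DMSO array above 4 (adjusted p = 9.53e-05), and MOLM13 rose to 6.74 and 6.32 (adjusted p = 0.00056). Untreated THP1 and NOMO1 already stood at 13.26 to 14.04 and were not called.

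SULF2, an extracellular sulfatase that trims heparan sulfate, went from 3.69 and 3.62 to 8.02 and 7.81 in GDM1 and rose in SKM1 by 3.10 ± 0.28 (adjusted p = 6.28e-07) and in MOLM13 by 1.34 ± 0.28 (adjusted p = 0.00183). STAB1, a scavenger receptor of macrophages and sinusoidal endothelium, was at the floor in both DMSO arrays of 6 lines and on in GDM1 (10.51 and 10.27). It reached 7.27 and 7.46 in MOLM13, 6.01 and 4.28 in SKM1 (adjusted p = 2.91e-06) and 3.76 and 3.62 in SHI1 (adjusted p = 0.00861), and did not leave the floor in THP1, SKNO1 and NOMO1. FBLN1, the matrix glycoprotein fibulin-1, went from 2.59 and 2.53 to 7.54 and 7.99 in MOLM13 and was called in no other line, although SKM1 expressed it (7.76 and 8.04, then 7.57 and 6.92). PLXDC2, a plexin-domain membrane protein, went from 2.60 and 3.13 to 8.02 and 7.99 in MOLM13 and rose by 1.79 ± 0.30 in GDM1 (adjusted p = 0.000178). Of 45 other measured genes of the matrix and adhesion list, 16 were called up in SKM1 (beside 14.1% of all genes), 11 in MOLM13 (13.7%), 6 in GDM1 (13.3%), 5 in THP1 (5.4%), 5 in NOMO1 (4.21%), 4 in SKNO1 (2.96%) and 4 in SHI1 (2.52%). Falls numbered 8 in SKM1, 3 in THP1, 3 in NOMO1, 1 each in GDM1, MOLM13 and SKNO1 and 0 in SHI1 (0 also at an unadjusted p under 0.05).

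NFE4, the sole member on the erythroid list and known as a partner in fetal globin gene activation, went from 2.33 and 2.78 to 8.17 and 8.63 in SKM1. GDM1 and THP1 were silent too and came close to the limit, at 6.07 and 6.86 (change 4.14 ± 0.19, adjusted p = 2.39e-10) and 6.93 and 6.89 (change 4.34 ± 0.19, adjusted p = 1.64e-10). The 4 lines with NFE4 on before treatment rose by less, from 0.83 ± 0.19 in SHI1 (adjusted p = 0.0196) to 1.77 ± 0.19 in MOLM13 (adjusted p = 2.85e-06). Of 10 other measured erythroid genes, 3 were called up in GDM1 (beside 13.3% of all genes), 3 in MOLM13 (13.7%) and 1 in SKM1 (14.1%). THP1 (5.4%), NOMO1 (4.21%) and SHI1 (2.52%) had 1 each, and SKNO1 (2.96%) had 0, also at an unadjusted p under 0.05. In SKM1, where NFE4 met the rule, 3 of the 10 fell (14% of all genes), and 1 each fell in GDM1, MOLM13 and NOMO1. OLIG1, a basic helix-loop-helix factor best known from oligodendrocytes, went from 2.69 and 2.79 to 8.15 and 8.47 in MOLM13. It was on in SKM1, THP1, NOMO1 and SHI1 before treatment, rose in GDM1 by 3.26 ± 0.30 (adjusted p = 4.04e-07) and in SKM1 by 1.00 ± 0.30 (adjusted p = 0.0184), and stayed near the floor in SKNO1.

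MAP3K13, a kinase upstream of JNK signalling, was on in 5 lines and silent in 2. In SKNO1 it went from 2.13 and 2.16 to 7.46 and 8.22. In GDM1, silent to the same degree, it read 2.18 and 2.24 before and 2.28 and 2.13 after, and the 5 expressing lines were not called. SMAD9, a transducer of bone morphogenetic protein signals, went from 3.5 and 3.62 to 7.99 and 8.47 in SKM1 and fell in GDM1, from 4.36 and 4.74 to 3.58 and 3.51 (change -1.0 ± 0.30, adjusted p = 0.0155). MOLM13, THP1, NOMO1 and SHI1 were silent for SMAD9 and were not called.

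**Figure D5:**
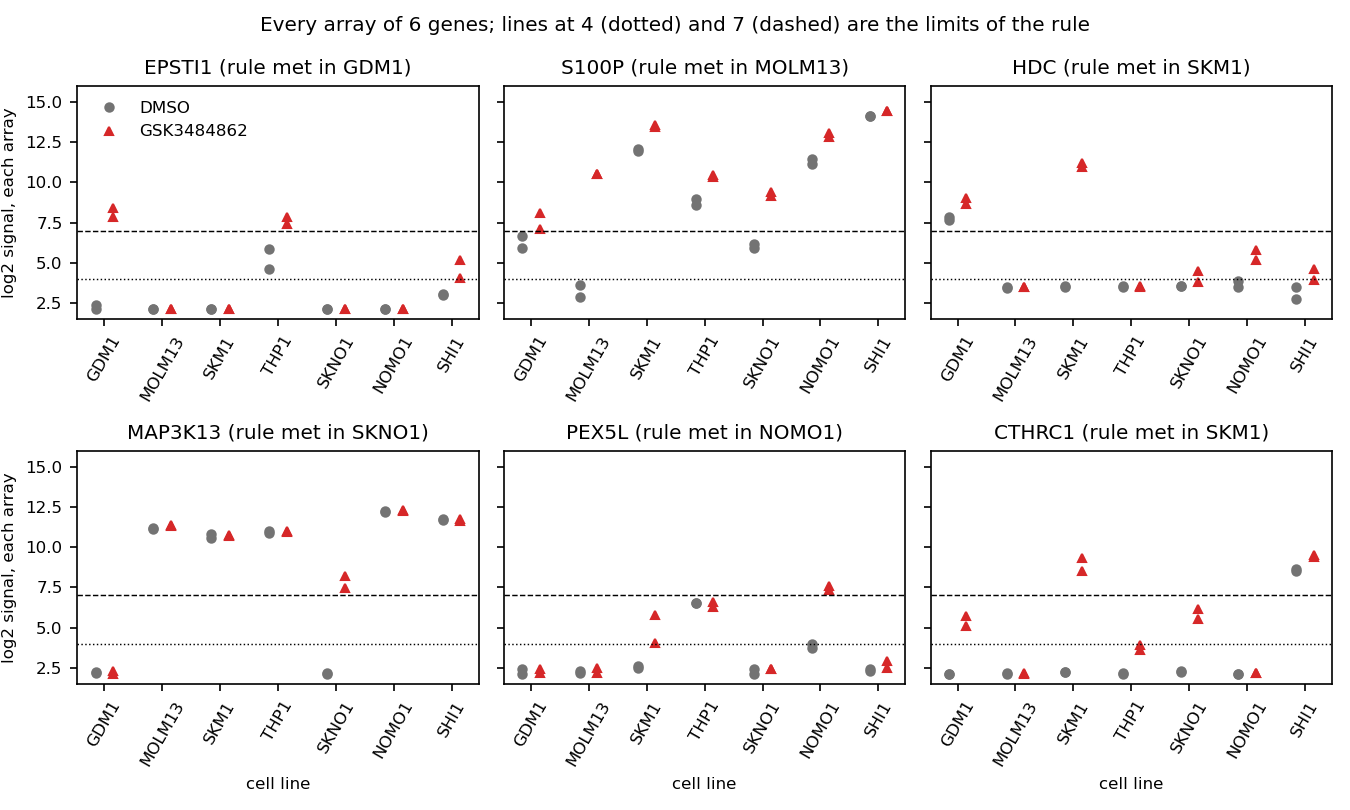
Log2 signal of every array (vertical axis) in the 7 lines (horizontal axis) for the described member with the largest change in each of 5 lines and for CTHRC1. Grey circles are DMSO arrays, red triangles GSK3484862 arrays, and the dotted and dashed lines the limits of 4 and 7. S100P lies above its DMSO arrays in every line, whereas MAP3K13 moves in SKNO1 and stays near 2 in GDM1.

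The remaining members are enzymes, transport and trafficking proteins. ALDH2, the mitochondrial aldehyde dehydrogenase that clears acetaldehyde, went from 2.65 and 2.66 to 8.89 and 7.97 in SKM1 and rose from 7.26 and 7.78 to 10.93 and 10.91 in MOLM13 (change 3.40 ± 0.36, adjusted p = 2.74e-06). NOMO1 rose by 1.38 ± 0.36 (adjusted p = 0.0193), and THP1, already at 13.52 and 13.69, was not called. MYO5C, an unconventional myosin of epithelial secretory traffic, was on in no untreated line and went from 3.06 and 2.57 to 8.31 and 7.92 in SKM1. GDM1 fell just short, going from 3.89 and 3.69 to 6.73 and 6.80 (change 2.97 ± 0.39, adjusted p = 1.97e-05), and THP1, SKNO1 and MOLM13 were also called up, by 2.43 ± 0.39 (adjusted p = 0.000683), 2.05 ± 0.39 (adjusted p = 0.00423) and 1.08 ± 0.39 (adjusted p = 0.0487). The MOLM13 call rests on unequal treated arrays (2.40 and 4.07): the change was 0.24 (adjusted p = 0.699) without the second and 1.92 without the first, and the call was lost without either DMSO array and with the replicate number as a block (adjusted p = 0.0565). NOMO1 and SHI1 did not move from 2.15.

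MTMR11, a myotubularin-related protein, went from 3.17 and 3.17 to 7.60 and 8.51 in SKM1 and rose by 1.59 ± 0.35 in GDM1 (adjusted p = 0.00208), to 3.48 and 4.84. TM6SF1, a membrane protein, went from 2.36 and 2.29 to 8.05 and 8.11 in MOLM13 and rose by 1.03 to 1.63 in SKM1, THP1, NOMO1 and SHI1, while GDM1 stayed silent (2.85 and 2.95 after treatment). PPIC, the cyclophilin C prolyl isomerase, went from 3.78 and 3.78 to 8.04 and 8.37 in MOLM13 and rose by 1.74 ± 0.51 in GDM1 (adjusted p = 0.0142). In NOMO1 the PPIC duplicates disagreed before treatment (5.94 and 3.44), and no change was called. PEX5L, a regulator of neuronal HCN channels, was the sole member in NOMO1, where it went from 3.98 and 3.74 to 7.56 and 7.33. A second PEX5L probe set in NOMO1 did not meet the rule, with DMSO arrays at 6.21 and 3.85. PEX5L rose in SKM1 by 2.36 ± 0.35 (adjusted p = 9.65e-05) and was not called in the other 5 lines.

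In 7 members, a called rise in one line stood against treated arrays that all lay below DMSO in another, both outside the rule. After these values had been seen, the largest rise was tested against the lowest change in each. The adjustment covers all genes of a pair of lines and not the choice of the pair, so these p-values overstate the differences. ALDH2 changed by 3.40 in MOLM13 and by -0.86 in GDM1, a difference of 4.26 ± 0.51 (adjusted p = 1.57e-05), and IL2RG by 2.15 and -0.44 in the same lines, a difference of 2.59 ± 0.42 (adjusted p = 0.000335; 18.4% of all genes differed between these lines). CEACAM6 changed by 3.37 in MOLM13 and by -0.92 in SKNO1, a difference of 4.29 ± 0.63 (adjusted p = 0.000186; 13% of all genes). PLXDC2 changed by 1.79 in GDM1 and by -1.08 in SHI1, a difference of 2.86 ± 0.42 (adjusted p = 0.000155; 18.6% of all genes). PDE4B changed by 2.48 in SKM1 and by -0.18 in GDM1, a difference of 2.66 ± 0.36 (adjusted p = 6.48e-05; 20.6% of all genes). SAMHD1 changed by 1.5 in MOLM13 and by -0.23 in NOMO1, a difference of 1.73 ± 0.22 (adjusted p = 6.76e-05; 9.4% of all genes). For PPIC the difference of 1.95 ± 0.72 between GDM1 and SKM1 was not called (adjusted p = 0.0679). None of the 7 negative changes was itself called.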

How the data were processed

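Log2 values of 27306 probe sets on 28 arrays were taken from the table the authors deposited. The sources used here do not give how signals were corrected, normalized or filtered; limma is named in the submitters' processing notes without version. The values shared a lowest value of 2.13 and array medians of 8.33 to 8.51, and were used as deposited. Duplicates correlated at 0.990 to 0.998 over probe sets.

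Gene symbols came from the platform's annotation: 22580 probe sets had 1 symbol, 1098 several and 3628 none. Each of 11676 genes was read from 1 probe set, that of the highest mean. Limits of 4 and 7 were applied to every array. Changes were fitted with limma 3.58.1 in R 4.3.3 (14 groups, 14 residual and 2.28 prior degrees of freedom), contrast GSK3484862 minus DMSO in each line, two-sided, Benjamini-Hochberg over all genes, and were checked on simulated data. P-values rest on the spread between duplicates, pooled for each gene over all lines. A line with wider duplicates, such as SKM1, is thus tested with a spread shared with the others. The number of arrays limits the precision. No hybridisation batch was given, so none could be tested.

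The members and gene lists were chosen with earlier results of these data known, and the lists support nothing by themselves. Every member was named; array values in the line that met the rule are given for 34 of the 35. Promoter windows came from RefSeq (GRCh38.p14), matched by symbol. Same-numbered DMSO and treated arrays correlated between -0.10 and 0.39 in their deviations from the group means. Alternatives were looser and stricter limits, quantile normalization, median centring, other choices of probe set, a low-value filter, eBayes options, array weights, a replicate block, separate fits, other thresholds and leaving out each array.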

Additional observations from a re-analysis of the deposited data

Results flagged for a closer look

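The change under GSK3484862 differed between lines in 6 of the 7 members that had a called rise in one line and all treated arrays below DMSO in another, tested with limma as the largest rise against the lowest change after the values were seen. The change in MOLM13 minus that in GDM1 was 4.26 for ALDH2 (adjusted p = 1.57e-05) and 2.59 for IL2RG (adjusted p = 0.000335). MOLM13 minus SKNO1 was 4.29 for CEACAM6 (adjusted p = 0.000186), and MOLM13 minus NOMO1 was 1.73 for SAMHD1 (adjusted p = 6.76e-05). GDM1 minus SHI1 was 2.86 for PLXDC2 (adjusted p = 0.000155), and SKM1 minus GDM1 was 2.66 for PDE4B (adjusted p = 6.48e-05). The difference of the seventh, PPIC, was not called. The lines of each pair were chosen by these same values, so the p-values overstate the differences. Between such pairs of lines, 9.4% to 20.6% of all genes differed.

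Outside the named genes, 9 of the 4726 probe sets with several gene symbols or none met the limits of the rule in at least 1 line. MOLM13 and SKM1 had 4 each, SKNO1 2, and GDM1, THP1 and NOMO1 1 each, with 0 in SHI1. They enter no count of members.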

How the results depend on the processing

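The number of members moved with the limits: 82 genes met looser limits (4.5 and 6.5) and 19 stricter ones (3.5 and 7.5). With the mean of all probe sets of a gene the number was 22, of which 20 were members, and with any probe set 42. Quantile normalization gave 35 genes, 33 of them members, and median centring the same 35. Leaving out 1 array gave 35 to 42.

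Members called up outside the rule numbered 78 over the lines, and 69 to 79 under every setting other than separate fits (17), an adjusted p under 0.01 (59) and leaving out probe sets marked _x_at or _s_at (64, added after the data were seen). With each line fitted on its own arrays the counts were 0 in SKM1, 1 in THP1 and 0 each in SKNO1, NOMO1 and SHI1. Under an adjusted p below 0.01 they were 6 in NOMO1 and 6 in SHI1. Leaving out 1 array gave 11 to 12 in GDM1, 9 to 10 in MOLM13, 9 to 12 in SKM1, 9 to 10 in THP1, 5 to 8 in SKNO1, 6 to 11 in NOMO1 and 4 to 7 in SHI1. The cause of these moves was not tested, beyond the fewer arrays and the stricter threshold. Replicate numbers run from 1 to 2 in each group. Serial numbers in the array titles run through all arrays of replicate 1 before those of replicate 2. They also place same-numbered DMSO and treated arrays of a line side by side. What the serial numbers stand for is not given, and the labels do not say whether same-numbered DMSO and treated arrays were handled together. In their deviations from the group means such arrays correlated at 0.37 in SKM1, 0.39 in SKNO1 and 0.31 in NOMO1. The other lines lay between -0.10 and 0.09. A block on the replicate number fits 1 shift common to all lines, so it does not test pairing within a line. With the replicate number as a block, 13, 9, 12, 13, 8, 12 and 10 members were called up in the lines in the order GDM1, MOLM13, SKM1, THP1, SKNO1, NOMO1, SHI1, 77 in all, and 1 of the 79 called changes was no longer called.

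Of these 79 changes, 0 reversed in any setting; 64 lost their call in some setting other than leaving out an array, 63 of them in separate fits, and 50 kept it whichever array was left out. Signals near the floor of 2.13 limit how large a change from silence can appear, and 2 arrays a group limit the precision.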

Other observations

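With looser limits (4.5 and 6.5), 4 genes met them in 2 lines each. MYO5C did so in SKM1 and GDM1, NFE4 in SKM1 and THP1, and TGFBI in SKM1 and SKNO1, all members. The other was OAS2, an interferon-induced sensor of double-stranded RNA and no member. Its arrays went from 2.77 and 4.22 under DMSO to 8.78 and 8.91 in GDM1, and from 3.05 and 3.65 to 6.67 and 7.04 in THP1. The genes were looked up after their values were seen, and these changes are given as values with no test.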
